A study of Mus musculus with 3 samples.

Results

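The S phase genes described here are 40 genes of DNA replication whose RNA is known to be most abundant while a cell copies its DNA, among them the Mcm2 to Mcm7 helicase subunits, Pcna, Rrm2 and Ccne2. They were taken by symbol from a fixed list, and all 40 of them are among the 33696 genes of the deposited matrices. Single bone marrow cells of mice had been sequenced in droplets, with 1 library for each of 3 genotypes of Fabp4, the gene of a fatty acid-binding protein. These were homozygous knockout mice for Fabp4, heterozygous knockout and wild type. Each library was a mixture of marrow from 2 mice of its genotype, and the files do not say which mouse a cell came from. All 3 groups are bone marrow with no other allele or agent named, and the labels used here give no age, sex, strain, sort or deleted part of the gene. The series is named for leukaemia stem cells, but no label says whether any mouse had leukaemia.

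In a dividing cell, licensing factors such as Cdc6 load the MCM helicase on replication origins, and Cdc45 and the GINS complex then switch it on. Polymerase alpha with its primase starts each strand, the Pcna clamp holds the other polymerases on the template, and ribonucleotide reductase and thymidylate synthase supply the nucleotides. Most of these genes are transcribed at the border of G1 and S phase by E2F factors. In marrow, stem and progenitor cells and early granulocyte and monocyte precursors divide, whereas mature neutrophils do not.

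Promoter sequence was matched for 30 of the 40 genes in the RefSeq table for build GRCm38.p6, whose windows run from 250 bases before a start to 50 after it. Mcm4, Gins2, Rfc2, Gmnn, Ccne2, Atad2, Exo1, Tipin, Dscc1 and Usp1 had no entry. An E2F-type motif, searched as TTTCCCGC, TTTGGCGC, TTTCGCGC or TTTGCCGC on both strands, stood in the windows of 14 of the 30 genes (46.7%), against 704 of 27025 genes in the whole table (2.60%). Those 14 genes were Mcm3, Mcm5, Mcm6, Mcm7, Cdc6, Dtl, Cdca7, Hells, Uhrf1, Casp8ap2, Ubr7, Pola1, Pold3 and Clspn. The pentamer CCAAT, on both strands, was in 73.3% of the matched genes and 41.1% of all genes, and the cell cycle homology-type word TTTGAA, on both strands, in 16.7% and 20.2%. The E2F-type words can overlap each other on opposite strands, and a match describes the letters only.

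The 200 bases before the start are printed for 5 genes that hold such a word and for Rrm2, which holds none in this window and had the highest ratio of the homozygous to the wild-type library. Of the 5, Mcm6 lies at chr1:128359706-128359905 (minus strand), Mcm5 lies at chr8:75109309-75109508 (plus strand), Cdc6 lies at chr11:98907951-98908150 (plus strand), Dtl lies at chr1:191575545-191575744 (minus strand), Hells lies at chr19:38930790-38930989 (plus strand). Rrm2 lies at chr12:24708054-24708253 (plus strand). Sequences run 5′ to 3′ on the gene's strand and end at the base before the start, and capitals mark the E2F-type words.
Mcm6: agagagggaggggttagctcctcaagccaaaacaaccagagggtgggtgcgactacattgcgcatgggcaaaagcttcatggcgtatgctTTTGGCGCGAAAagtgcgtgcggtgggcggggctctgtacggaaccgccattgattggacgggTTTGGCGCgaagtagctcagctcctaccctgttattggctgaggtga
Mcm5: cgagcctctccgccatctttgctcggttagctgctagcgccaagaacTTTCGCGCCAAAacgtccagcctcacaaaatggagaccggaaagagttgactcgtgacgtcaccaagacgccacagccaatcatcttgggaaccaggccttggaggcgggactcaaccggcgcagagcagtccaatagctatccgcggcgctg
Cdc6: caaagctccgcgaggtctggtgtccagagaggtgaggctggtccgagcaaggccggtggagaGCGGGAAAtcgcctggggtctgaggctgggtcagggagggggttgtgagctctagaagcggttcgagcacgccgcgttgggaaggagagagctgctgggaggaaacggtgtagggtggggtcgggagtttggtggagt
Dtl: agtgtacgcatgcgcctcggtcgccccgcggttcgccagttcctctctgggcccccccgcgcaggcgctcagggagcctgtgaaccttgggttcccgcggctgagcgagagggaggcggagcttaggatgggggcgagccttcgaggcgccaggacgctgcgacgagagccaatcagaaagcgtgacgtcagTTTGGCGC
Hells: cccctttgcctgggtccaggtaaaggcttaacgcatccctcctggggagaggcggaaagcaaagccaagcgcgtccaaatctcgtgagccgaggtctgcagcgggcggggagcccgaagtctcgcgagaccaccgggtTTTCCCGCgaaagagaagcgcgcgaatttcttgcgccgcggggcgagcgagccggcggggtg
Rrm2: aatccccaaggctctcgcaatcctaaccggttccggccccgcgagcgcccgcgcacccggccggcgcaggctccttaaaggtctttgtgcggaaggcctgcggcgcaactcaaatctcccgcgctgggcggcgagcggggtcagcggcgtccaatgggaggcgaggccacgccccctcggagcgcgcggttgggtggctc
In Mcm6 the word TTTGGCGC begins 110 bases before the start, overlaps GCGCGAAA on the other strand, and occurs again 47 bases before the start. Mcm5 holds the same kind of overlapping pair, TTTCGCGC with GCGCCAAA, from 153 bases before its start. The word of Dtl begins 8 bases before the start.

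Cells were kept with at least 500 UMIs (unique molecules), at least 200 genes and under 10% mitochondrial UMIs, which left 4318 homozygous, 7957 heterozygous and 5604 wild-type cells with 46093025, 72880881 and 67141826 UMIs. The filter on mitochondrial RNA set aside 46.8% of homozygous, 25.8% of heterozygous and 40.6% of wild-type barcodes. Between 21 and 26 barcodes were shared by any pair of libraries. Fabp4 had 5 UMIs in homozygous cells (0.108 CPM, counts per 1000000 UMIs), 38 in heterozygous cells (0.521 CPM) and 50 in wild-type cells (0.745 CPM), too few to check the labels cell by cell. Sample titles begin with W, H and K for the libraries labelled wild type, homozygous and heterozygous, letters that could also be read with the knockout libraries exchanged. Groups follow the genotype label, and Fabp4 was lowest in the library labelled homozygous, with an interval of 0.0352 to 0.253 CPM against 0.369 to 0.716 CPM in the one labelled heterozygous. The labels used here do not say which part of the gene was deleted, so this checks them only if the counted 3′ end is in it. The pools also differed by sex-linked RNA: Xist stood at 1230 CPM in homozygous, 208 CPM in heterozygous and 1281 CPM in wild-type cells. Markers of marrow cells differed as well, since the 6 secondary granule genes of immature neutrophils summed to 8193 CPM in homozygous, 25245 CPM in heterozygous and 8730 CPM in wild-type cells. With 1 library per genotype there is no replicate check and no test between genotypes. Ratios are therefore given with exact 95% intervals that cover counting error only, not the spread between mice, and both ratios share the wild-type library.

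The S phase genes together made up 0.300% of all UMIs in homozygous cells, 0.201% in heterozygous cells and 0.247% in wild-type cells. Their summed level was 2998 CPM (2982 to 3014) in homozygous, 2015 CPM (2005 to 2025) in heterozygous and 2473 CPM (2461 to 2484) in wild-type cells. The homozygous sum was thus higher than the wild-type sum by 0.28 on the log2 scale (0.27 to 0.29), and the heterozygous sum differed from it by -0.30 (-0.31 to -0.29). Of the 40 genes, 38 were higher in the homozygous than in the wild-type library, with a median log2 ratio of 0.37, whereas 56.9% of the 17034 genes with at least 20 UMIs were higher, with a median of 0.06. In the heterozygous library only 3 of the 40 were higher than in wild type, and the median was -0.29, against 37.7% of 17412 genes and a median of -0.14. Measured from that overall median, the heterozygous members had a median of -0.15 and 10 of them were higher.

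Counted as at least 1.5-fold (0.58 on the log2 scale), 4 of 40 genes were higher in homozygous cells and 0 were lower, a share of 1 in 10 beside 11.5% of all genes higher and 9.62% lower. In heterozygous cells 0 were higher and 4 were lower, beside 11.6% of all genes higher and 17.6% lower. Neither share is above its background. The homozygous count was 16 when each cell had equal weight, 8 in thinned cells and 2 when ratios were centred on all genes, so it does not settle how many genes differed by 1.5-fold. The share of all genes was not computed under these settings, so these 3 counts have no background.

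**Figure D1:**
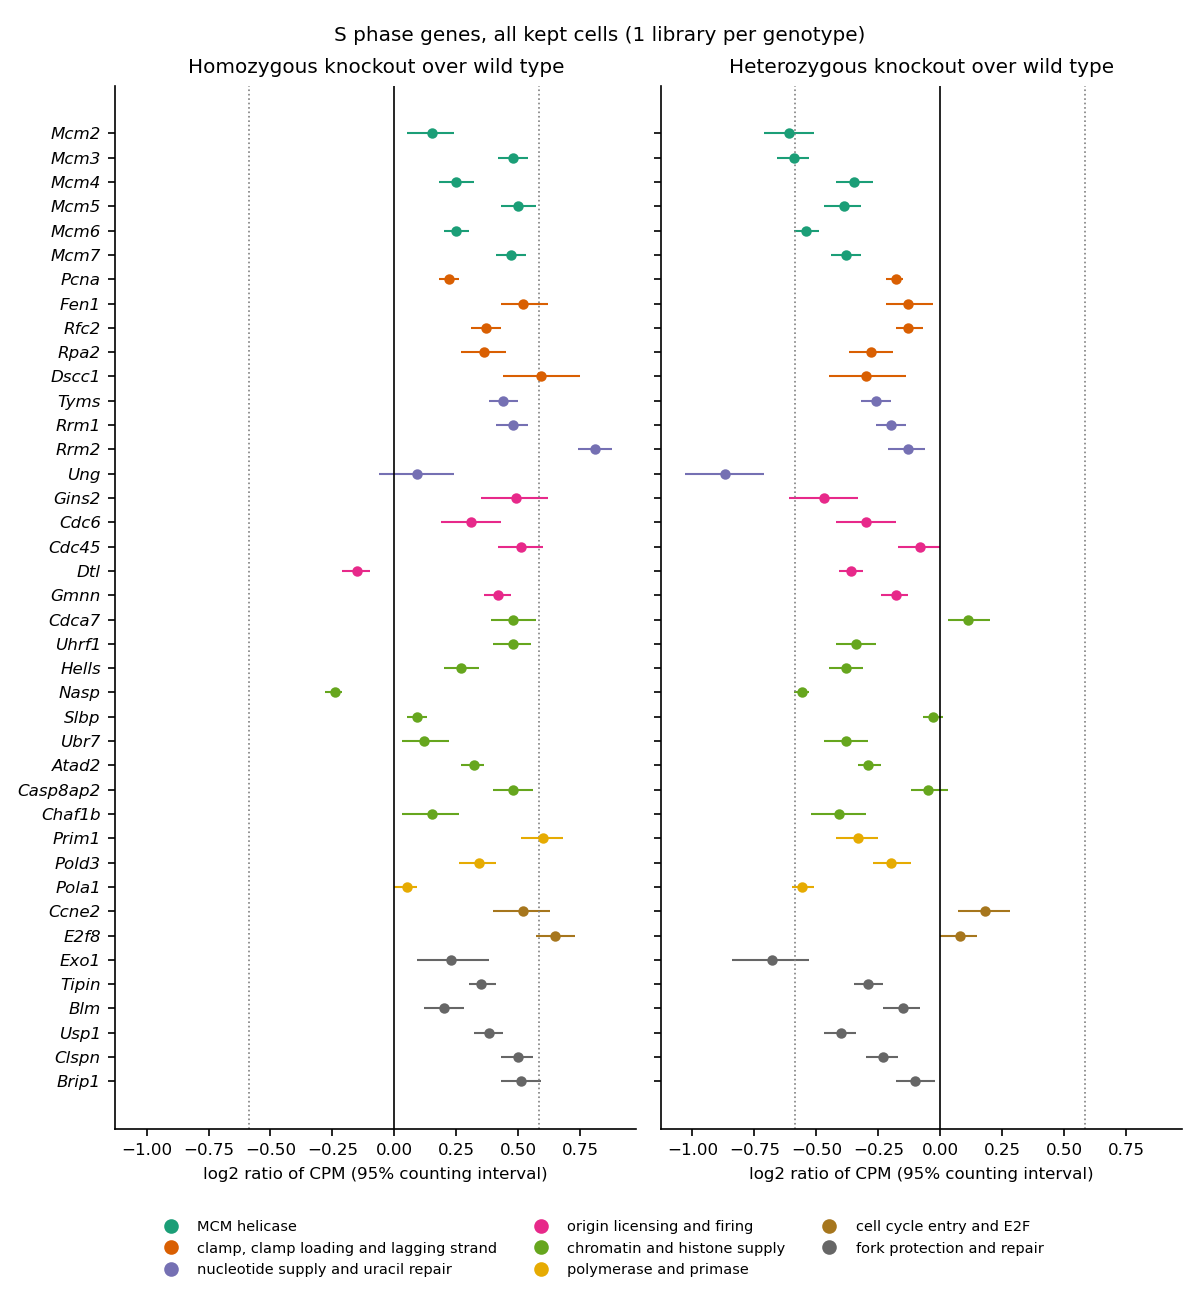
Log2 ratio of CPM for each S phase gene in all kept cells, homozygous over wild type on the left and heterozygous over wild type on the right. Points are ratios coloured by role, bars are 95% counting intervals and dotted lines mark 1.5-fold; on the left 38 of 40 points lie above 0, with Dtl and Nasp below it, and on the right 37 lie below it.

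The MCM helicase, the ring of 6 subunits that unwinds DNA, was higher throughout in homozygous cells, with log2 ratios of 0.15 to 0.50 and a median of 0.36. In heterozygous cells all 6 subunits were lower than in wild type, from -0.61 to -0.35. Mcm5 stood at 67.7 CPM in homozygous, 36.4 CPM in heterozygous and 47.9 CPM in wild-type cells, ratios of 0.50 (0.43 to 0.57) and -0.39 (-0.47 to -0.32). Mcm3 had 95.2, 45.2 and 68.2 CPM in homozygous, heterozygous and wild-type cells, ratios of 0.48 (0.42 to 0.54) and -0.59 (-0.66 to -0.53). The subunits did not keep step with each other. Mcm2 had the smallest homozygous ratio of the ring, 0.15 (0.05 to 0.24), and the lowest heterozygous ratio, -0.61 (-0.71 to -0.51), at 34.7, 20.5 and 31.3 CPM in homozygous, heterozygous and wild-type cells. Mcm6 had 125 CPM in homozygous, 71.8 CPM in heterozygous and 105 CPM in wild-type cells, with a heterozygous ratio of -0.54 (-0.59 to -0.49).

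Genes of nucleotide supply held the highest homozygous ratio. Rrm2, the small subunit of ribonucleotide reductase that limits the enzyme in S phase, stood at 78.0 CPM in homozygous, 40.6 CPM in heterozygous and 44.6 CPM in wild-type cells. Its level was 1.75-fold the wild-type level in homozygous cells (log2 0.81, 0.74 to 0.88), and differed by -0.13 in heterozygous cells. Its partner subunit Rrm1 had 85.2, 53.3 and 61.2 CPM in homozygous, heterozygous and wild-type cells, a homozygous ratio of 0.48. Tyms, thymidylate synthase, had 90.8, 55.9 and 66.9 CPM, a homozygous ratio of 0.44. The fourth gene of the group, Ung, removes uracil from DNA and behaved otherwise. It had 13.6 CPM in homozygous, 7.01 CPM in heterozygous and 12.8 CPM in wild-type cells, so its homozygous ratio of 0.09 had an interval from -0.06 to 0.24, while its heterozygous ratio of -0.87 (-1.03 to -0.71) was the lowest of the 40.

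Of the 5 genes of origin licensing and firing, 4 were higher in homozygous cells and all 5 were lower in heterozygous cells. Cdc45, part of the active helicase, had 44.6 CPM in homozygous, 29.5 CPM in heterozygous and 31.3 CPM in wild-type cells, a homozygous ratio of 0.51 (0.42 to 0.60). Gins2, a GINS subunit, had 20.2, 10.4 and 14.4 CPM in homozygous, heterozygous and wild-type cells, ratios of 0.49 (0.35 to 0.62) and -0.47 (-0.61 to -0.33). Cdc6 and Gmnn, whose product geminin blocks re-licensing, had homozygous ratios of 0.31 and 0.42. Dtl was the exception: this receptor of the ubiquitin ligase that destroys the licensing factor Cdt1 had 85.1 CPM in homozygous, 73.7 CPM in heterozygous and 94.7 CPM in wild-type cells, ratios of -0.15 (-0.21 to -0.10) and -0.36. The homozygous ratio of Dtl was 0.04 when each cell was given equal weight.

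The primase and polymerase genes were led by Prim1, the catalytic primase subunit, with 54.2 CPM in homozygous, 28.4 CPM in heterozygous and 35.8 CPM in wild-type cells and a homozygous ratio of 0.60 (0.51 to 0.68). Pola1, the catalytic subunit of polymerase alpha with which primase works, had 146, 96.5 and 142 CPM in homozygous, heterozygous and wild-type cells, ratios of 0.05 and -0.56 (-0.60 to -0.51). The subunits of this enzyme thus stood apart in homozygous cells by more than their counting intervals. Among clamp and lagging strand genes all 5 were higher in homozygous cells and lower in heterozygous cells. Fen1, the nuclease that trims Okazaki fragments, had 39.2, 25 and 27.3 CPM in homozygous, heterozygous and wild-type cells, a homozygous ratio of 0.52 (0.43 to 0.62). Dscc1, a subunit of a clamp loader used in sister chromatid cohesion, had 15.7, 8.48 and 10.4 CPM, a homozygous ratio of 0.59 (0.44 to 0.75). Pcna itself had 209, 158 and 180 CPM, ratios of 0.22 and -0.18.

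Of 9 genes for chromatin and histone supply, 8 were higher in homozygous cells and 1 was higher in heterozygous cells. The 9 spanned homozygous ratios from -0.24 to 0.48. Uhrf1, which helps copy DNA methylation at the fork, had 58.1, 32.9 and 41.8 CPM in homozygous, heterozygous and wild-type cells, and Cdca7, a partner of the remodeller Hells, had 40.7, 31.6 and 29.2 CPM. Cdca7 was the member of this group higher in heterozygous cells, by 0.11 (0.03 to 0.20), but its ratio was -0.17 within cells that had Xist and no Y-linked RNA. Such cells were 14.4% of heterozygous and 91.9% of wild-type cells. Nasp, a chaperone that stores and delivers histone H3 with H4, was lower in both knockout libraries. It stood at 214 CPM in homozygous, 171 CPM in heterozygous and 252 CPM in wild-type cells, ratios of -0.24 (-0.28 to -0.21) and -0.56 (-0.59 to -0.53). Slbp, which binds the stem-loop of histone messages, had 184, 170 and 173 CPM and nearly equal levels.

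The 2 genes of cell cycle entry were higher in homozygous cells and, unlike most of the 40, not lower in heterozygous cells. Ccne2, cyclin E2, which activates Cdk2 at the start of S phase, had 28.0 CPM in homozygous, 22.2 CPM in heterozygous and 19.6 CPM in wild-type cells, ratios of 0.52 (0.40 to 0.63) and 0.18 (0.07 to 0.28). E2f8, an atypical E2F that represses E2F targets late in S phase, had 60.8, 40.8 and 38.7 CPM, ratios of 0.65 (0.57 to 0.73) and 0.08 (-0.00 to 0.15). The 6 genes of fork protection and repair were all higher in homozygous cells and all lower in heterozygous cells. Brip1, a helicase of the Fanconi anaemia pathway, had 54.3, 35.6 and 38.1 CPM in homozygous, heterozygous and wild-type cells, a homozygous ratio of 0.51 (0.43 to 0.59). Clspn, claspin, which passes the checkpoint signal of stalled forks to Chk1, had 81.5, 49.2 and 57.8 CPM, a homozygous ratio of 0.50 (0.43 to 0.56). Usp1, which removes ubiquitin from Pcna, had 82.9, 48.3 and 63.8 CPM, a heterozygous ratio of -0.40 (-0.47 to -0.34). Exo1, a resecting nuclease, had 15.1, 8.03 and 12.9 CPM and a heterozygous ratio of -0.68 (-0.84 to -0.53).

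The libraries did not hold the same mix of cells, and the part of this in the sums was not tested. Cells were therefore gated by markers into 6 classes: mature neutrophil (Cxcr2, Retnlg, Stfa2l1 and Il1r2), Ltf, Ly6c2 with Ccr2, Cd34, Elane, and other. Cells gated as mature neutrophil were 4.28% of homozygous, 20.5% of heterozygous and 3.73% of wild-type cells, and Ltf-gated cells, immature neutrophils by their secondary granule genes, were 2.87%, 14.3% and 4.16%. Cd34-gated cells were 2.59% of homozygous, 3.37% of heterozygous and 10.7% of wild-type cells, only 112, 268 and 597 cells. With the class shares of wild type imposed on the heterozygous cells, the heterozygous sum differed from wild type by -0.09 in place of -0.30, 13 of 40 genes were higher and 0 were at least 1.5-fold lower. Such counts were not made for all genes. Imposed on the homozygous cells, the same shares gave a homozygous sum higher by 0.33 in place of 0.28, with 38 of 40 genes higher. Within cells that had Xist and no Y-linked RNA, the homozygous sum was higher by 0.31 and the heterozygous sum differed by -0.31. These were 3636 homozygous (84.2%), 1148 heterozygous (14.4%) and 5151 wild-type cells (91.9%), so the heterozygous value rests on a small part of its library.

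The summed S phase genes were lowest in the neutrophil gates of every library. In mature neutrophil-gated cells, which should not divide, they stood at 1413 CPM in homozygous, 992 CPM in heterozygous and 1562 CPM in wild-type cells, which serves below as the background level. Mki67, a mark of dividing cells, was not at 0 in this gate, at 111, 61 and 94.1 CPM in homozygous, heterozygous and wild-type cells. Cd34-gated cells had 3728, 2893 and 2747 CPM of S phase genes in homozygous, heterozygous and wild-type libraries. Elane-gated cells had 3462, 2814 and 3177 CPM, and cells with Ly6c2 and Ccr2 had 2644, 1856 and 2046 CPM.

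**Figure D2:**
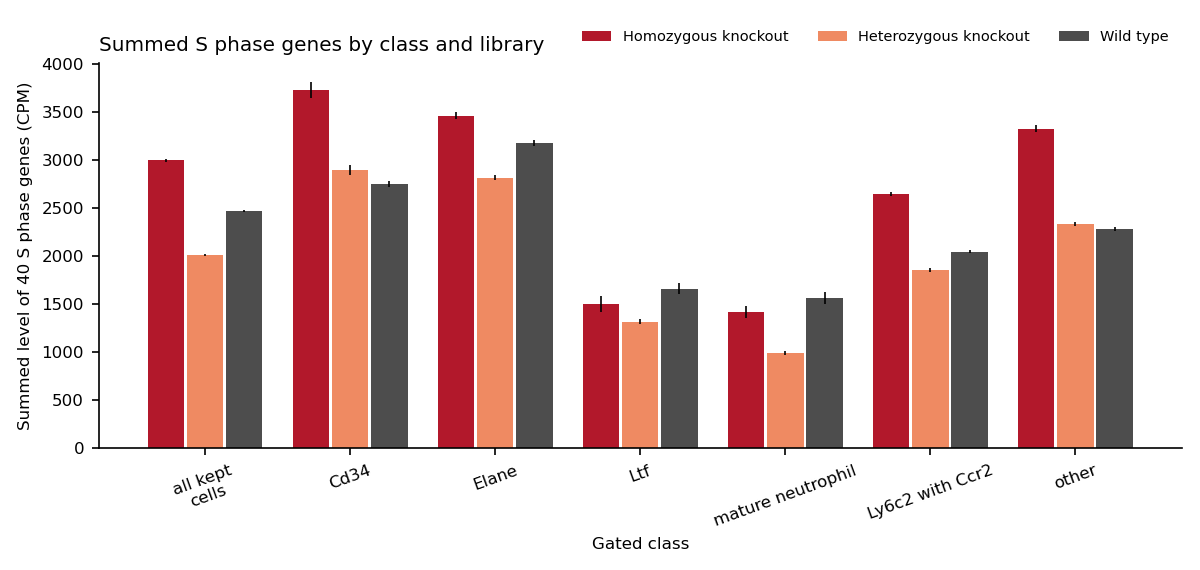
Summed level of the 40 S phase genes in CPM for all kept cells and each marker-gated class, with bars for the homozygous, heterozygous and wild-type library and 95% counting intervals. Homozygous bars are the tallest in the Cd34 (3728 CPM), Elane, Ly6c2 with Ccr2 and other classes, and wild-type bars are the tallest in the Ltf and mature neutrophil classes.

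In Cd34-gated homozygous cells 39 of 40 S phase genes were higher than in wild type, beside 52.6% of all genes. The median was 0.51 beside 0.02 for all genes, and 16 of the 40 were at least 1.5-fold higher beside 9.87% of all genes (0 lower beside 11.5%). Their sum was higher by 0.44 (0.40 to 0.48). Ccne2 had 34.7 CPM in homozygous and 14.8 CPM in wild-type cells of this gate (1.23, 0.79 to 1.65), Rrm2 had 79.7 and 36.4 CPM (1.13, 0.85 to 1.40), and Gins2 had 37.8 and 17.6 CPM (1.11, 0.69 to 1.51). The gate did not hold the same cells in each library. Its 5 primary granule genes of granulocyte-monocyte progenitors summed to 8625 CPM in homozygous, 6546 CPM in heterozygous and 5645 CPM in wild-type cells, and its 5 monocyte genes to 3293, 2451 and 1741 CPM. The 6 stem and progenitor genes summed to 725, 705 and 800 CPM, the 4 mast cell and basophil genes to 68.4, 17.0 and 4.67 CPM, the 5 T and NK cell genes to 115, 101 and 105 CPM, and the 4 dendritic cell genes to 53.6, 342 and 70.5 CPM. Car1, Cd3e, Siglech and Fcer1a were at 0 in all 3 libraries. The part of these markers in the result was not tested.

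In heterozygous Cd34-gated cells the S phase genes lay close to wild type, with 25 of 40 higher beside 45.4% of all genes. The median was 0.07 beside -0.03 for all genes, and the sum was higher by 0.07 (0.04 to 0.11). Rrm2 was the sole member at least 1.5-fold higher, at 58.6 CPM in heterozygous and 36.4 CPM in wild-type cells (0.69, 0.44 to 0.93, but 0.04 in thinned cells), and 0 were as much lower, beside 8.01% and 8.71% of all genes. E2f8 followed at 48.9 and 35.3 CPM (0.47), and Rfc2, a clamp loader subunit, at 114 and 89.6 CPM (0.35). Lower values were seen for Ubr7, at 29.0 CPM in heterozygous and 37.3 CPM in wild-type cells (-0.36), for Cdca7 (-0.33) and for Nasp (-0.15).

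Elane-gated cells held primary granule genes of granulocyte-monocyte progenitors but also many immature neutrophil genes, most of all in the heterozygous library. They showed smaller homozygous differences than Cd34-gated cells. In homozygous cells 33 of 40 genes were higher beside 55.3% of all genes, and the median was 0.20 beside 0.04. The sum of the S phase genes was higher by 0.12 (0.11 to 0.14). Only 1 gene (2.50%) was at least 1.5-fold higher, under the 8.84% of all genes, and 0 were lower beside 9.17%. That gene was Rrm2, at 106 CPM in homozygous and 69.1 CPM in wild-type cells (0.62, 0.51 to 0.73). Cdca7 had 57.0 and 40 CPM (0.51) and Mcm7 137 and 104 CPM (0.40). Dtl was lower, at 95.8 CPM in homozygous and 124 CPM in wild-type cells (-0.38, -0.48 to -0.28), as were Nasp at 240 and 303 CPM (-0.34) and Pola1 at 145 and 173 CPM (-0.25). In heterozygous Elane-gated cells 7 of 40 were higher beside 44.1% of all genes, and the median was -0.14 beside -0.05. None was 1.5-fold higher or lower, beside 7.34% and 11.6% of all genes. Mcm2 had 33.2 CPM in heterozygous and 46.7 CPM in wild-type cells (-0.49), Nasp 223 and 303 CPM (-0.44) and Pola1 128 and 173 CPM (-0.43). The gate held 10871 CPM of the 5 primary granule genes in homozygous, 7975 CPM in heterozygous and 10986 CPM in wild-type cells, and 10368, 21596 and 8872 CPM of the 6 immature neutrophil genes, whose part in the result was not tested.

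Cells with Ly6c2 and Ccr2 were gated on 1 UMI of each gene, and their other markers, given below, were not those of monocytes alone. In the homozygous library 38 of 40 genes were higher beside 54.9% of all genes, and the median was 0.43 beside 0.04. At least 1.5-fold higher were 12 genes (30.0%) beside 9.80% of all genes (0 lower beside 10%). Rrm2 had 60.5 CPM in homozygous and 32.9 CPM in wild-type cells (0.88, 0.74 to 1.01), Brip1 48.4 and 26.4 CPM (0.87, 0.72 to 1.03) and E2f8 53.2 and 30.8 CPM (0.79, 0.65 to 0.93). Nasp was lower, at 189 CPM in homozygous and 218 CPM in wild-type cells (-0.20). In the heterozygous library 8 of 40 were higher beside 46.8% of all genes, with a median of -0.16 beside -0.03. Of the 40 genes, 3 were 1.5-fold lower beside 8.79% of all genes (0 higher beside 9.08%). Exo1 had 6.40 CPM in heterozygous and 10.1 CPM in wild-type cells (-0.66), and Mcm6 64.0 and 86.9 CPM (-0.44). In this gate the 5 monocyte genes summed to 4495 CPM in homozygous, 3215 CPM in heterozygous and 2988 CPM in wild-type cells, and the 6 immature neutrophil genes to 2462, 8029 and 4591 CPM. The 5 primary granule genes summed to 2728, 2420 and 3682 CPM and the 4 dendritic cell genes to 354, 1637 and 278 CPM. In wild-type cells the immature neutrophil and the primary granule sums were thus above the monocyte sum. The part of these markers in the result was not tested.

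The cells left over by all gates had the widest homozygous difference. There 39 of 40 genes were higher, the median was 0.68 beside 0.10 for all genes, and 27 (67.5%) were at least 1.5-fold higher beside 15.8% of all genes (0 lower beside 7.37%). Rrm2 had 84.8 CPM in homozygous and 39.2 CPM in wild-type cells (1.11), Prim1 55.9 and 26.0 CPM (1.10) and E2f8 80.3 and 41.2 CPM (0.96). These cells were of no single type and were shallower in the homozygous library, with a median of 4332 UMIs in homozygous, 5930 in heterozygous and 7154 in wild-type cells. In heterozygous cells of this class 28 of 40 were higher beside 44.3% of all genes, and the median was 0.13 beside -0.05. Of the 40 genes, 0 were 1.5-fold higher or lower beside 10.6% and 11.1% of all genes. The direction of the heterozygous sum, 0.03, turned under several settings, as when thinned cells gave -0.10.

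The neutrophil gates had the lowest summed S phase levels of the classes, but not levels near 0. Ltf-gated cells had 1497 CPM in homozygous and 1659 CPM in wild-type cells, and mature neutrophil-gated cells 1413 and 1562 CPM. Their median homozygous ratios lay slightly below 0. In the homozygous library 14 of 37 measured genes were higher in Ltf-gated cells and 15 of 37 in mature neutrophil-gated cells, with medians of -0.14 and -0.11. Of all genes, 45.4% and 44.3% were higher in these gates, with medians of -0.05 and -0.06. The interval lay below 0 for 2 of the 37 genes in Ltf-gated cells and 3 in mature neutrophil-gated cells, and above 0 for 1 in each. In Ltf-gated homozygous cells 1 gene was 1.5-fold higher and 3 were 1.5-fold lower beside 9.08% and 13.9% of all genes, and in mature neutrophil-gated cells 3 and 3 beside 8.33% and 14.0%. Dtl had 19.8 CPM in homozygous and 47.7 CPM in wild-type Ltf-gated cells (-1.27, -2.11 to -0.51), on 17 and 90 UMIs, and a ratio of -0.31 with equal weight per cell. In the same gate Cdca7 had 55.9 CPM in homozygous and 29.7 CPM in wild-type cells (0.92). In the mature gate Nasp had 94.9 CPM in homozygous and 157 CPM in wild-type cells (-0.73), Rrm1 24.6 and 41.2 CPM (-0.74) and Atad2, a chromatin ATPase, 56.5 and 79.9 CPM (-0.50). With the gate limits halved the homozygous sums were higher than wild type in Ltf-gated and mature neutrophil-gated cells, by 0.13 and 0.18, and the ratios of Rrm1 and Atad2 were 0.08 and 0.06, while Atad2 had -1.60 with a gate on Cxcr2 and Retnlg alone, added after seeing the data.

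The heterozygous difference in mature neutrophil-gated cells depended on which marker genes gated them. With the main gate 37 of 40 genes were lower beside 57.4% of all genes, and the median was -0.75 beside -0.09. The sum differed by -0.66, and 26 genes (65.0%) were 1.5-fold lower beside 17.6% of all genes (0 higher beside 12.1%). Mcm3 had 13.7 CPM in heterozygous and 39.4 CPM in wild-type cells of this gate (-1.52, -1.94 to -1.08), Uhrf1 11.2 and 31.4 CPM (-1.49) and Prim1 9.67 and 25.8 CPM (-1.42). Cdc45, Blm and Exo1 were higher in heterozygous cells, by 0.31, 0.23 and 0.28, each with an interval that includes 0. With the gate limits halved, the sum differed by -0.63 and 24 of 40 were 1.5-fold lower. With the gate on Cxcr2 and Retnlg alone, the median was -0.07, 18 of 38 measured genes were higher and 7 were 1.5-fold lower. The share of all genes was not computed for either of these gates. The ratios of Mcm3 and Uhrf1 were then -0.05 and 0.15, and the summed ratio of -0.11 was no longer below that of Elane-gated cells. In Ltf-gated heterozygous cells 9 of 40 (22.5%) were 1.5-fold lower beside 12.4% of all genes and 0 higher beside 9.72%, among them Rrm2 at 28.0 CPM in heterozygous and 48.2 CPM in wild-type cells (-0.78) and Dtl at 28.7 and 47.7 CPM (-0.73). That count was 3 with the gate limits halved and 25 of 36 measured genes in cells with Xist and no Y-linked RNA. Such cells were 14.4% of all kept heterozygous cells. The share of all genes was not computed for these alternatives. Rrm2 had a ratio of 0.35 with the limits doubled, and Dtl had one of -2.51 in the Xist cells.

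**Figure D3:**
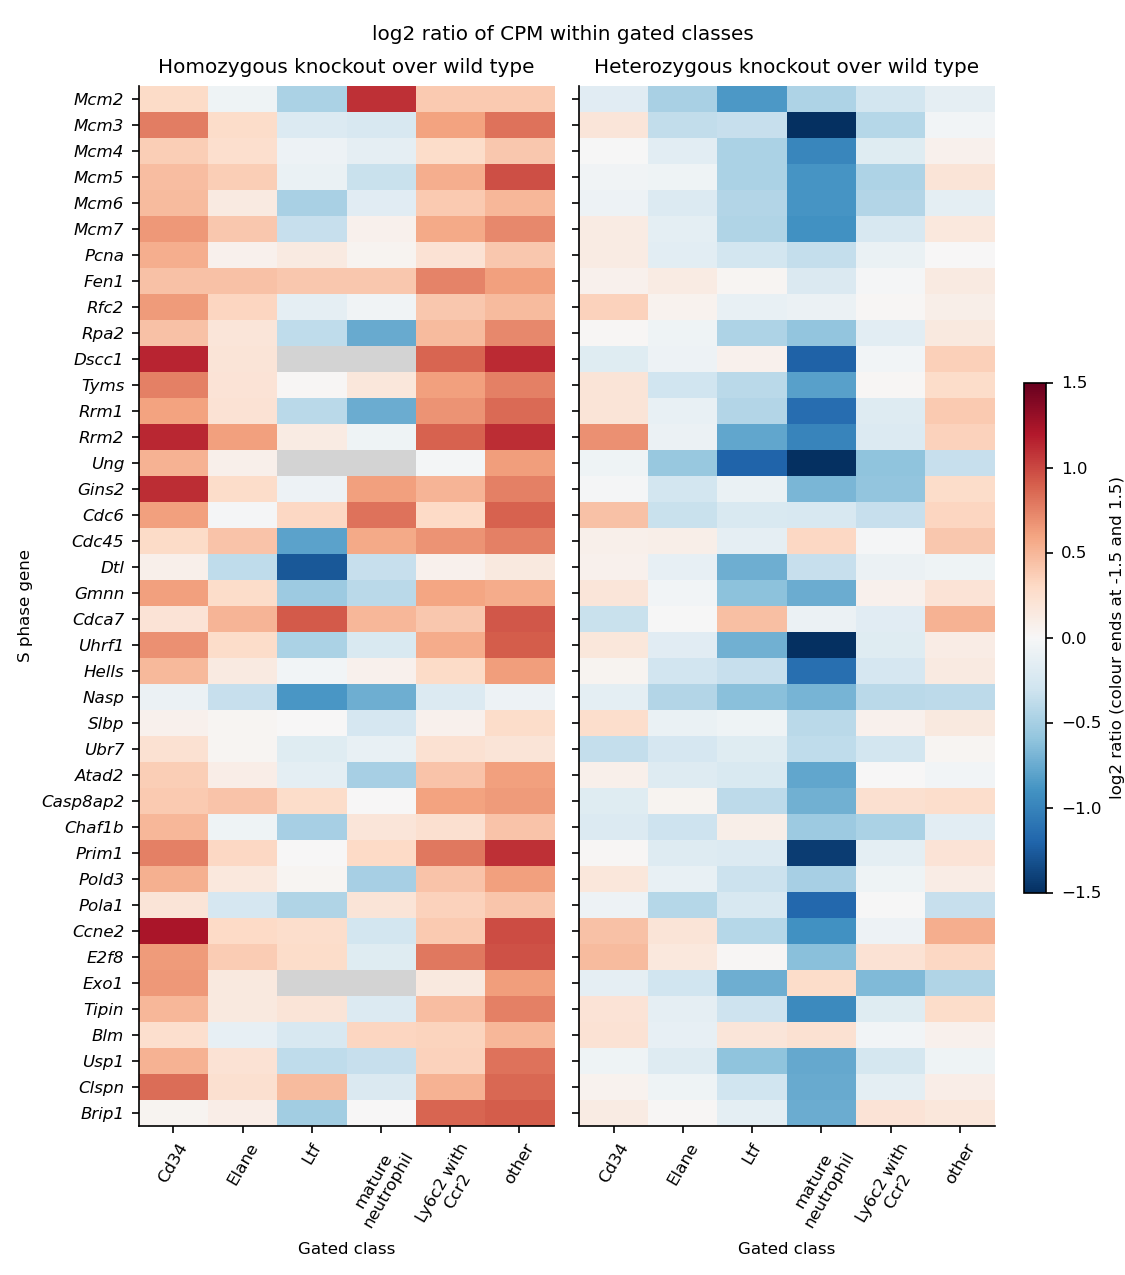
Log2 ratio of CPM for each S phase gene in each gated class, homozygous over wild type on the left and heterozygous over wild type on the right, on a colour scale that ends at -1.5 and 1.5, with grey where the pair had under 20 UMIs. Red, higher than wild type, fills the homozygous Cd34, Ly6c2 with Ccr2 and other columns except for Nasp and, with Ly6c2 and Ccr2, Ung, and blue, lower than wild type, fills the heterozygous mature neutrophil column except for Cdc45, Blm and Exo1.

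Across classes, 32 of the 40 genes were higher in homozygous than in wild-type cells in 4 classes at once. These were the Cd34, Elane, Ly6c2 with Ccr2 and other classes. In each of the 4, more of all measured genes were higher than lower. No such count over classes was made for all genes, so the counts over classes given here have no background. Pcna, Tyms, Fen1, Cdca7, Exo1 and Dscc1 were higher in every class where they had 20 UMIs. The smallest of these homozygous ratios were near 0 for Tyms (0.02) and Pcna (0.04). Nasp was the sole gene lower in all 6 classes, with homozygous ratios from -0.87 in Ltf-gated cells (-0.23 with equal weight per cell) to -0.08 in the remaining cells. In the heterozygous library Nasp was again lower in all 6 classes, as were Mcm2, Mcm6, Ung, Usp1 and Pola1, and no gene was higher in all.

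Whether more cells held S phase RNA, or the same cells held more of it, was looked at cell by cell. Each cell was thinned to 3000 UMIs, so that depth did not set the count, which left out 873 homozygous, 818 heterozygous and 359 wild-type cells that were too shallow. The median cell had 5.0 S phase UMIs in homozygous, 3.0 in heterozygous and 4.0 in wild-type libraries. A cell was counted as over background with more than 20 S phase UMIs, the 99th percentile of mature neutrophil-gated cells of the 3 libraries together, most of which were heterozygous. By that limit 286 of 3445 homozygous cells were over background (8.30%, exact binomial 95% interval 7.40 to 9.27), 229 of 7139 heterozygous cells (3.21%, 2.81 to 3.64) and 282 of 5245 wild-type cells (5.38%, 4.78 to 6.02). The mature neutrophil-gated cells themselves gave 1.72% in homozygous, 0.261% in heterozygous and 3.52% in wild-type libraries, and unthinned counts gave 10.1%, 2.92% and 5.64%. The median UMIs of all kept cells were 9036 in homozygous, 7658 in heterozygous and 10058 in wild-type libraries.

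Within classes, homozygous cells over background were 11.8% of Cd34-gated cells (6.45 to 19.4), against 6.72% (4.03 to 10.4) in heterozygous and 5.90% (4.15 to 8.11) in wild-type cells. The homozygous share rests on 13 of 110 cells, and its interval overlaps the other 2. Among Elane-gated cells they were 9.09% (7.24 to 11.2) in homozygous, 4.75% (3.48 to 6.30) in heterozygous and 7.98% (6.45 to 9.74) in wild-type cells, so the homozygous and wild-type intervals overlapped. Cells with Ly6c2 and Ccr2 had 6.28% (5.06 to 7.70), 2.74% (1.89 to 3.82) and 2.96% (2.17 to 3.94) in homozygous, heterozygous and wild-type libraries, the heterozygous and wild-type shares below the 3.52% of mature neutrophil-gated cells in wild type. These cells are the upper range of a continuous score and not a type, with 184 homozygous, 238 heterozygous and 209 wild-type cells within 2 UMIs of the limit. A limit at the 95th percentile gave 29.3% in homozygous, 14.1% in heterozygous and 20.8% in wild-type cells, so the size of a share depends on the limit while the order of the libraries did not change.

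**Figure D4:**
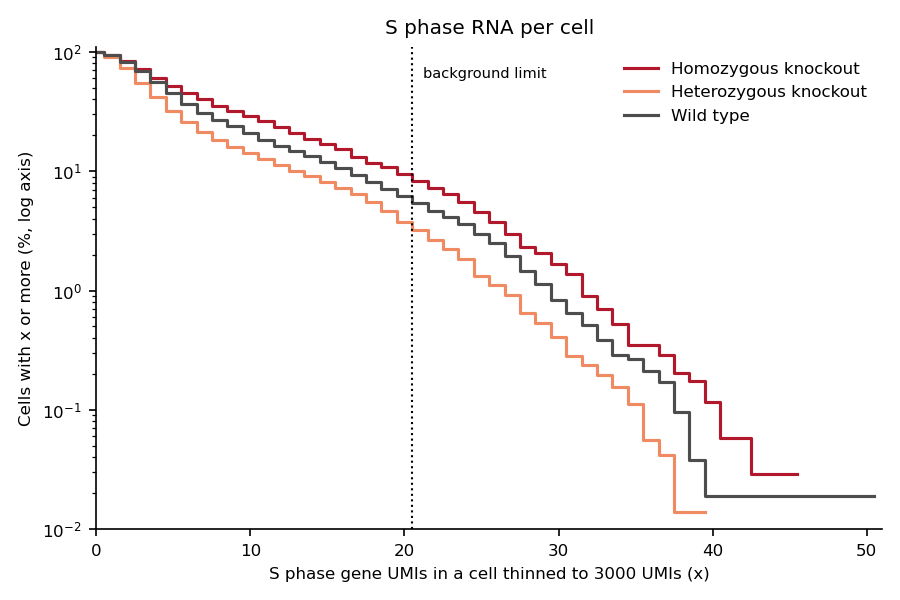
Share of cells, in percent on a log axis, with at least the number of S phase UMIs on the x axis, in cells thinned to 3000 UMIs, with a line for each library. The homozygous line lies above the wild-type line and the heterozygous line below it at the dotted background limit, where the shares are 8.30% for homozygous, 3.21% for heterozygous and 5.38% for wild-type cells.

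The cells over background resembled each other in total S phase RNA, with a mean of 26.0 UMIs in homozygous, 25 in heterozygous and 25.9 in wild-type cells, as the limit itself favours. The cells under the limit had means of 5.95, 4.17 and 5.22. Within cells over background 30 of 40 genes were higher in the homozygous than in the wild-type library, with a median of 0.14 beside 0.03 for all genes. Of the 40, 0 were at least 1.5-fold higher or lower, beside 9.31% of all genes higher and 8.31% lower. The sum of the genes itself chose these cells, so ratios within them are not free of that choice. Rrm2 had 270 CPM in homozygous, 201 CPM in heterozygous and 186 CPM in wild-type cells over background, a homozygous ratio of 0.54 (0.41 to 0.67). Ccne2 had 121, 130 and 94.9 CPM, ratios of 0.35 (0.16 to 0.53) and 0.46 (0.26 to 0.65). Nasp had 473, 506 and 604 CPM, ratios of -0.35 (-0.43 to -0.27) and -0.25 (-0.34 to -0.17), and Dtl had 264, 345 and 349 CPM, ratios of -0.40 (-0.51 to -0.29) and -0.02. Mcm6 stood at 344, 305 and 343 CPM and had a homozygous ratio of 0.00 (-0.10 to 0.10). In the heterozygous library 15 of 40 were higher, and the median was -0.06 beside -0.03 for all genes. Ung alone was 1.5-fold lower (-0.60, -0.94 to -0.27) and 0 were higher, beside 10.5% and 8.23% of all genes.

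How closely each gene followed the others was measured with that gene left out of the sum. In each library, the 10% of cells with the highest sum of the other genes were set against the 50% with the lowest. Every one of the 40 genes was higher in the cells with more of the others, in all 3 libraries. No such count was made for all genes, so this count has no background. The genes were also listed together as S phase genes beforehand. Rrm2 was among the steepest, with 246 CPM in those cells and 9.79 CPM in the low cells of the homozygous library, 158 and 6.31 CPM in the heterozygous library, and 168 and 7.61 CPM in wild type. Its log2 ratios were 4.65 in homozygous, 4.65 in heterozygous and 4.46 in wild-type cells, and Exo1 had 4.34, 4.65 and 4.67. Slbp had the smallest wild-type ratio, with 1.62, 1.44 and 1.38, near Rfc2 with 1.40, 1.62 and 1.45. Cdca7 differed between libraries, with 2.63 in homozygous, 1.43 in heterozygous and 2.60 in wild-type cells. Its low heterozygous cells held 21.7 CPM, against 15.1 CPM in the low homozygous and 11.8 CPM in the low wild-type cells.

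The genes were also spread over the cycle. Cells over background for the S phase genes alone, with the described gene left out of the sum, were set against cells over background only for a list of 53 genes of G2 and M phase (more than 48 UMIs of 3000). All 40 genes were higher in the S phase cells in each library, by 0.27 to 6.44 on the log2 scale. These cells were chosen by the other genes of the same list. No such count was made for all genes, so it has no background. Ung was the most confined to S phase cells, at 43.2, 32.9 and 50.7 CPM in S phase cells of the homozygous, heterozygous and wild-type libraries against 0.922, 0.380 and 0.907 CPM in their G2 and M cells, which rest on 5, 1 and 2 UMIs. Ccne2 had log2 ratios of 2.99, 2.93 and 3.21. E2f8 was the least confined, at 136, 129 and 119 CPM in S phase cells of the 3 libraries against 107, 107 and 93.9 CPM in their G2 and M cells. Rrm2 also carried on into G2 and M, with 250, 197 and 181 CPM in S phase cells and 107, 97.7 and 108 CPM in G2 and M cells, and Rrm1, Gmnn, Blm and Usp1 were less than 2-fold higher in S phase cells in every library.

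**Figure D5:**
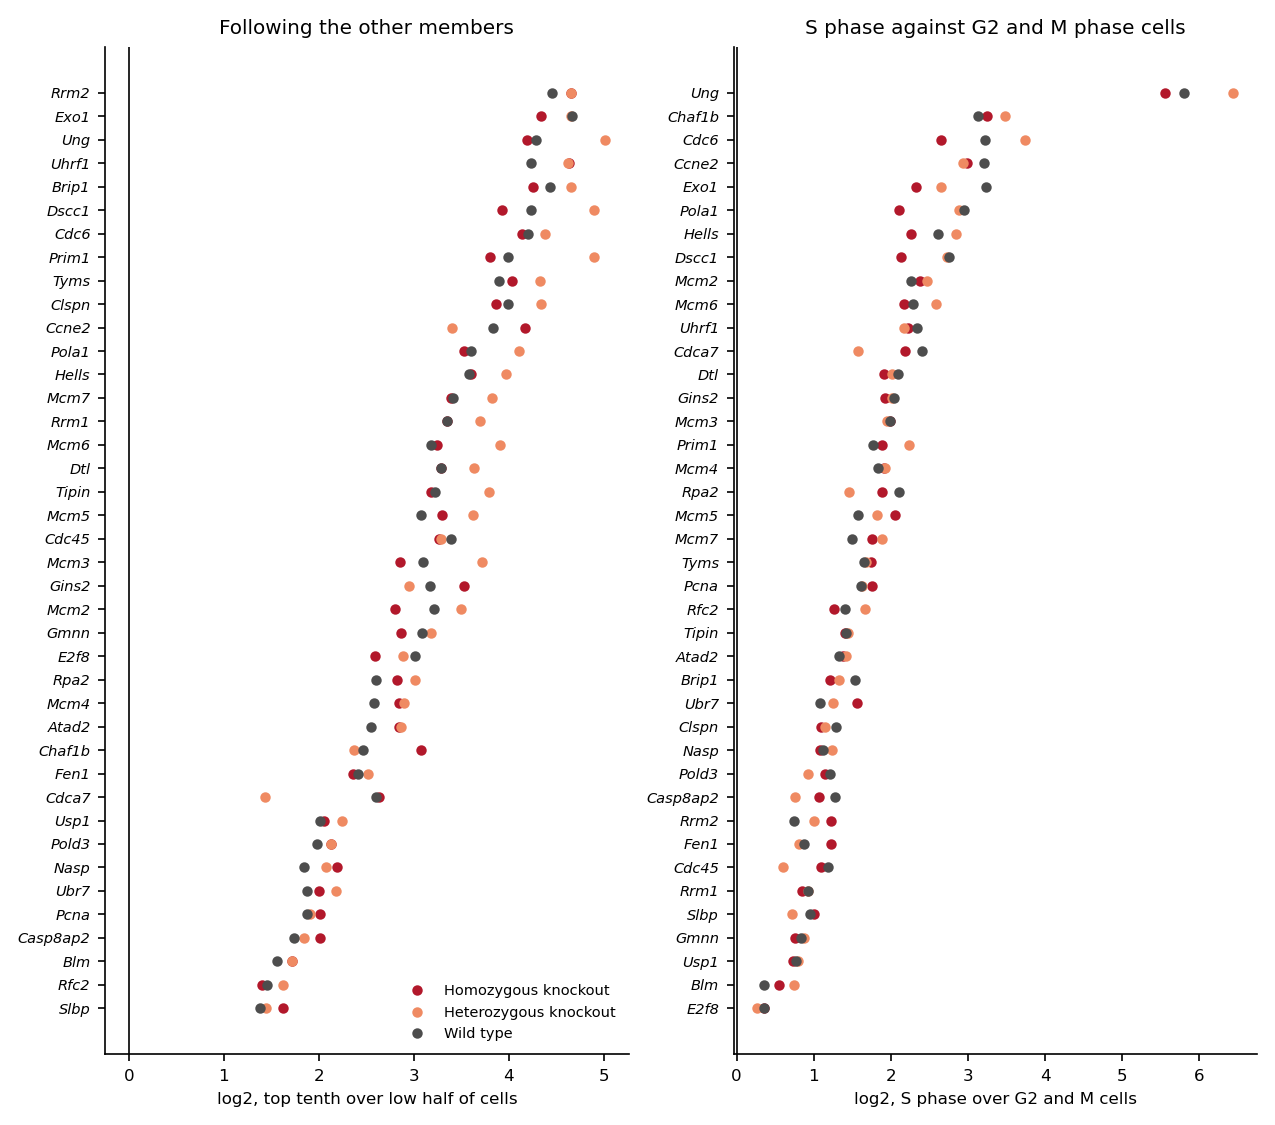
Log2 ratio for each S phase gene in each library, on the left between the 10% of cells with the most and the 50% with the least RNA of the other S phase genes, on the right between S phase cells and G2 and M phase cells. All points lie above 0, Rrm2 heads the left panel with 4.46 to 4.65, and Ung and E2f8 bound the right panel.

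Beyond the 40 genes, 81 other replication genes showed the same direction in the homozygous library. Of these 73 were higher than in wild type beside 56.9% of all genes, with a median of 0.38 beside 0.06. At least 1.5-fold higher were 21 (25.9%) beside the 11.5% of all genes. Ccna2, cyclin A, which drives S phase into G2, had 47.9 CPM in homozygous and 22.2 CPM in wild-type cells (1.11, 1.02 to 1.21), Esco2, which sets cohesion during replication, 44.8 and 23.7 CPM (0.92), and Lig1, the ligase that seals Okazaki fragments, 89.3 and 54.0 CPM (0.73). In the heterozygous library 11 of 81 were higher beside 37.7% of all genes, and the median was -0.25 beside -0.14. Of the 81, 8 (9.88%) were 1.5-fold lower, under the background of 17.6%.

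The G2 and M genes stood further above wild type than the S phase genes in homozygous cells. In all kept cells 51 of the 53 listed genes were higher beside 56.9% of all genes. At least 1.5-fold higher were 37 of them (69.8%), against 4 of 40 S phase genes and 11.5% of all genes. The medians were 0.37 for the S phase genes and 0.73 for the G2 and M list. Its summed level was 7587 CPM in homozygous, 5321 CPM in heterozygous and 5293 CPM in wild-type cells. In Elane-gated homozygous cells 1 of 40 S phase genes and 30 of 53 G2 and M genes (56.6%) were at least 1.5-fold higher, beside 8.84% of all genes. Their medians were 0.20 and 0.63. In the neutrophil gates the homozygous medians of the S phase and the G2 and M genes had opposite signs. They were -0.14 and 0.51 in Ltf-gated cells, and -0.11 and 0.31 in mature neutrophil-gated cells. The medians of all genes there were -0.05 and -0.06. The sign of the S phase medians was not stable, since they were 0.11 and 0.20 with the gate limits halved. In Cd34-gated cells the S phase genes had the higher median, 0.51 beside 0.18 for the G2 and M genes. Cells over the G2 and M limit were 10.1% of homozygous, 2.73% of heterozygous and 2.67% of wild-type thinned cells. In heterozygous cells the medians were -0.29 for the S phase genes and -0.06 for the G2 and M genes.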

How the data were processed

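Bone marrow cells of 3 libraries, 1 per genotype, were measured with the Chromium Single Cell 3' v3 kit, per the labels' protocols. The deposited counts are raw UMI totals of each gene in each barcode, with no normalization, made with Cell Ranger 8.0.1 per the file headers. Per the submitters' processing notes, Cell Ranger and STAR were used with mm10, and the annotation is not given in the sources used here. The lowest total of a barcode was 500 or 501 UMIs, so barcodes had been filtered before deposit. Groups were taken from the genotype label of each sample, since the title letters (W, H and K) do not spell it out and can be read in more than 1 way.

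Cells were kept with at least 500 UMIs, 200 genes and under 10% mitochondrial UMIs, and doublets were kept. Counts were summed per gene over cells and scaled to counts per 1000000 UMIs (CPM) with exact Poisson 95% intervals, and ratios of CPM got exact conditional intervals. These cover counting error only, and amplified reads, free RNA and the pooled mice add error that they leave out. Genes needed 20 UMIs over the pair of libraries. Gates were taken in a fixed order: mature neutrophil (summed Cxcr2, Retnlg, Stfa2l1 and Il1r2 over 40 per 10000 UMIs), Ltf (over 10), Ly6c2 with Ccr2 (1 UMI each), Cd34 (1 UMI), Elane (over 10) and other. The limits were set after looking at the marker distributions, without looking at the S phase genes. Thinning drew 3000 UMIs per cell without replacement, and shares got exact binomial (Clopper-Pearson) intervals.

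The members and all gene lists (other replication genes, G2 and M genes, cell type markers) were chosen with earlier results of these data known, so no list is independent evidence. Full values are given in all kept cells for at most 10 genes per direction and comparison, ordered by the bound of the interval nearest to 0, with the interval not including 0 and 50 UMIs in 1 library, and within classes for at most 3. Other genes are named for their role or as exceptions, after their values were seen, and values of some listed genes are not reported here. Alternatives were a stricter and no cell filter, doublets removed by Scrublet, equal weight per cell, thinned cells (3000 or 1000 UMIs), the 95th percentile as limit, ratios centred on all genes, mitochondrial and ribosomal genes left out, at least 1 or 50 UMIs, doubled and halved gate limits, cells with Xist and no Y-linked RNA, wild-type class shares, and a gate on Cxcr2 and Retnlg. The interval and ratio steps were checked on simulated counts. Python 3.11.15, numpy 2.4.6, scipy 1.17.1, pandas 2.3.3, matplotlib 3.10.9, scanpy 1.11.5 and anndata 0.12.19 were used.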

Additional observations from a re-analysis of the deposited data

Results flagged for a closer look

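The homozygous ratio of the summed S phase genes pointed in opposite directions in different classes. It was 0.44 in Cd34-gated, 0.12 in Elane-gated, 0.37 in Ly6c2 with Ccr2 and 0.54 in the remaining cells, against -0.15 in Ltf-gated and -0.14 in mature neutrophil-gated cells, on the log2 scale. Rrm1, the large subunit of ribonucleotide reductase, had homozygous ratios of 0.60 in Cd34-gated, 0.67 in Ly6c2 with Ccr2 and 0.85 in the remaining cells, and -0.74 in mature neutrophil-gated cells. The heterozygous ratio of the sum was 0.07 in Cd34-gated and 0.03 in the remaining cells, against -0.18 in Elane-gated, -0.33 in Ltf-gated, -0.66 in mature neutrophil-gated and -0.14 in Ly6c2 with Ccr2 cells. Rrm2 had heterozygous ratios of 0.69 in Cd34-gated (0.04 when cells were thinned), -0.78 in Ltf-gated and -0.99 in mature neutrophil-gated cells. With 1 library per genotype these differences between classes were not tested.

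The barcodes set aside for their mitochondrial RNA also held S phase RNA. In the 3797 homozygous barcodes set aside, the S phase genes summed to 3303 CPM (3263 to 3343), against 2602 CPM in heterozygous and 2828 CPM in wild-type barcodes set aside, and the 3 values stood in the same order as in the kept cells.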

How the results depend on the processing

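No paired analysis was possible because each genotype has 1 library, and for the same reason no replicate could be left out. The homozygous sum kept its direction under every alternative run in all kept (0.22 to 0.40), Cd34-gated (0.32 to 0.45), Elane-gated (0.08 to 0.18), Ly6c2 with Ccr2 (0.33 to 0.43) and remaining cells (0.40 to 0.67), and the heterozygous sum in all kept cells stayed between -0.40 and -0.09. With wild-type class shares imposed, 0 of 40 genes were 1.5-fold lower in heterozygous cells, in place of 4. The cause was not tested for any change named here. No share of all genes was computed under the alternatives, so their counts of genes have no background.

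Some ratios turned direction. With equal weight per cell the homozygous Ltf sum was 0.30, the heterozygous remaining sum -0.13 and homozygous Dtl 0.04. With gate limits halved the homozygous sums were 0.13 in Ltf-gated and 0.18 in mature neutrophil-gated cells, where Rrm1 was 0.08 and Atad2 0.06. In cells with Xist and no Y-linked RNA the homozygous mature neutrophil sum was 0.02, the heterozygous remaining sum -0.15, and heterozygous ratios were -0.17 for Cdca7 in all kept cells, -0.15 for E2f8 in Elane-gated cells, -0.02 for Casp8ap2 and -0.06 for Brip1 in Ly6c2 with Ccr2 cells, and -0.07 for Rrm1 in remaining cells. The heterozygous remaining sum was also -0.01 with no cell filter, -0.10 in thinned cells, -0.03 without mitochondrial and ribosomal genes and -0.17 with gate limits doubled, where heterozygous Rrm2 in Ltf-gated cells was 0.35. With the Cxcr2 and Retnlg gate, heterozygous Uhrf1 in mature cells was 0.15.

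Counts of genes 1.5-fold higher in homozygous all kept cells were 2 with no filter, 16 with equal weight, 8 in thinned cells, 2 centred and 2 without mitochondrial and ribosomal genes, against 4. In Elane-gated cells they were 0 under the stricter filter, with doublets removed, centred or without mitochondrial and ribosomal genes, 2 with equal weight or halved limits and 3 thinned, against 1. In Ltf-gated cells they were 13 with equal weight and 4 with halved limits, against 1. In mature neutrophil-gated cells they were 1 with doublets removed, 0 thinned, 0 at 50 UMIs, 5 in Xist cells and 1 with the Cxcr2 and Retnlg gate, against 3, and in remaining cells 14 with doubled limits, against 27.

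Counts of genes 1.5-fold lower in heterozygous all kept cells were 8 with equal weight, 8 thinned, 1 centred and 7 without mitochondrial and ribosomal genes, against 4. In Cd34-gated cells 2 were lower thinned, against 0. In Elane-gated cells they were 1 under the stricter filter, 1 with equal weight, 1 without mitochondrial and ribosomal genes and 5 in Xist cells, against 0. In Ltf-gated cells they were 17 with doublets removed, 25 in Xist cells, 3 with halved limits and 16 with the Cxcr2 and Retnlg gate, against 9, and in mature neutrophil-gated cells 7 with that gate, against 26. In Ly6c2 with Ccr2 cells they were 1 under the stricter filter, 5 thinned, 1 centred and 5 in Xist cells, against 3, and in remaining cells 1 with no filter, 2 thinned, 2 in Xist cells, 2 with doubled and 1 with halved limits, against 0.

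The shares of cells over background were 2.78% heterozygous and 4.52% wild type under the stricter filter. They were 31.9% homozygous, 16.0% heterozygous and 23.8% wild type with doubled limits, 4.56%, 1.33% and 2.99% with halved limits, and 29.3%, 14.1% and 20.8% with the 95th percentile or the Cxcr2 and Retnlg gate. Over all values recomputed, 142 ratios of single genes, 64 counts, 69 sums and 80 shares moved beyond the limits set for them and 10 gene ratios and 10 sums turned direction, whereas 751 gene ratios, 270 counts, 88 sums and 67 shares stayed within them.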

Other observations

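Genes outside the list that followed the S phase cells were picked as the 15 with the highest smallest ratio, over the 3 libraries, between cells over and not over background. Among them were Ccne1, E2f7, Kntc1, Lrr1, Mybl2, Atad5, Paqr4, Tcf19, Lig1, Brca1, Wdr76, Pclaf, Pask and Aunip, none of which is in the G2 and M list. Ccne1, cyclin E1, the partner of the member Ccne2, led with 71.6 CPM in homozygous cells over background and 12.4 CPM in the other homozygous cells, 65.2 and 7.57 CPM in heterozygous cells, and 64.5 and 8.26 CPM in wild-type cells. E2f7, the relative of the member E2f8, came next, at 72.5 and 13.2 CPM in homozygous, 72.5 and 9.46 CPM in heterozygous, and 64.5 and 9.04 CPM in wild-type cells. Pclaf, a Pcna-binding factor, had 809 and 193 CPM in homozygous, 760 and 179 CPM in heterozygous, and 589 and 104 CPM in wild-type cells. Mybl2, a cell cycle transcription factor, and Brca1, a DNA repair gene, were in the same set. These are descriptions of cells chosen by their S phase RNA, which were deeper than the others, with medians of 14311 UMIs in homozygous, 14025 in heterozygous and 14690 in wild-type cells that were over the S phase limit alone, against 10275, 8038 and 10356 in cells over neither limit.

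Slfn9, a schlafen gene counted among the other replication genes, had the widest range of that list. It stood at 14.1 CPM in homozygous, 1.96 CPM in heterozygous and 5.73 CPM in wild-type cells, ratios of 1.30 and -1.55, and was singled out after its values were seen.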
